A study of Mus musculus with 6 samples.

Results

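The AP-1 genes of corneal keratocytes were examined in bulk RNA-seq libraries of sorted cells, as the rows of the deposited gene table that carry the symbols Fos, Fosb, Fosl1, Fosl2, Jun, Junb, Jund, Atf3, Maff and Batf3. All 10 symbols were found among the 17606 genes of the table. Keratocytes are the mesenchymal cells of the corneal stroma, whose collagen matrix they make and keep up. The Ptch1-ablated group (3 libraries) came from mice labelled Prrx1-creERT;Ptch1 (Ptch1 f/f in the study's text), in which a tamoxifen-dependent Cre recombinase knocked into the stromal gene Prrx1 was to remove floxed Ptch1, the receptor that restrains Hedgehog signaling. The control group (3 libraries) is labelled only as ctrl, and whether these mice carried Prrx1-creERT or floxed Ptch1 is not given in the sources used here. All 6 samples came from mice of 10 weeks that had received 3 doses of tamoxifen, with 1 month of treatment in the labels, and the study used both sexes. The study's methods call the libraries biological replicates, and whether each held 1 mouse or a pool, and which markers set the sorting gate, is not given.

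AP-1 is a dimer of basic leucine zipper (bZIP) proteins. Jun proteins pair with each other or with Fos proteins, which cannot pair among themselves, and the dimers bind a short palindrome known as the TRE or the related cAMP response element (CRE). Atf3 and Batf3 form dimers with Jun proteins, while Maff, a small Maf protein without a transactivation domain, pairs mainly with CNC-type bZIP proteins. Fos, Fosb, Jun, Junb and Atf3 are immediate early genes, which growth factors, mechanical load, injury and the handling of dissociated tissue can all induce within minutes through MAP kinases, serum response factor and CREB. Fosl1, Fosl2 and Jund as a rule respond later or less.

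The promoters of the 4 genes that passed the test described below are shown first, because these are the genes that were higher together. The 150 bases before the transcription start are given 5′ to 3′ on the strand of the gene (RefSeq, GRCm38.p6), at chr12:85473740-85473889 (plus strand) for Fos, chr7:19310046-19310195 (minus strand) for Fosb, chr4:95052223-95052372 (minus strand) for Jun and chr8:84978749-84978898 (minus strand) for Junb. Capitals mark the 5 letters TGACG that make up one arm of a CRE, the Jun element TGACATCA, and the TATA box TATAAA of Fos.
Fos promoter: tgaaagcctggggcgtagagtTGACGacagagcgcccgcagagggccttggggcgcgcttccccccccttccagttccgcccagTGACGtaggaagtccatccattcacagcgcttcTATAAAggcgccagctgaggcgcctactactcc
Fosb promoter: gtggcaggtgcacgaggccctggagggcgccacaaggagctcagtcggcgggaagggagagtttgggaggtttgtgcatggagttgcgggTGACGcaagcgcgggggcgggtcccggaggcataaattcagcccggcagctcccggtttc
Jun promoter: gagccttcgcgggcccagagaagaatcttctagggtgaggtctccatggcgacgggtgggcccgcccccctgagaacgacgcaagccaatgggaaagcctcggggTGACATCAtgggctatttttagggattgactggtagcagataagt
Junb promoter: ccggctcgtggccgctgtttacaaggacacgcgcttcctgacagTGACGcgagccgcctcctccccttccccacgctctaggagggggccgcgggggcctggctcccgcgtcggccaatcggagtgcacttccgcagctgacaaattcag

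The 250 bases before each RefSeq start were searched on both strands, which covered 11 windows of 9 AP-1 genes and 32851 promoters in all. The share of G and C letters ran from 47.6% (Jund) to 76.0% (Batf3) in the windows, against a median of 52.4% over all promoters. It was 58.4%, 68.8%, 66.4% and 65.2% for Fos, Fosb, Junb and Atf3. Shares over all promoters were not matched for this, so they are no like baseline. The CRE arm TGACG was present in 6 of the 11 windows, those of Fos, Fosb, Junb and Atf3 and 2 of the 3 of Maff, and in 17.8% of all promoters. Fos held it at 129 to 125 and at 66 to 62 bases before the start, Fosb at 60 to 56 and Junb at 106 to 102. The full CRE TGACGTCA, which contains the arm, was present in 1 window, that of Maff, against 1.55% of all promoters. TGACATCA was present in the windows of Jun, at 45 to 38 bases before the start, and of Maff, against 2.93% of all. The canonical TRE, searched as TGANTCA, was found in 0 of the 11 windows and in 6.75% of all promoters, and the Gli site GACCACCCA in 0 of 11 and in 0.225%. TATAAA was found only at Fos among the 11 windows and in 12.4% of all promoters, and the CArG box, searched by its consensus, in 0 of 11 and 1.47%. These motifs were chosen with the sequences in view, and a missing match says only that the letters are not in this window.

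Library totals ran from 20258414 to 24788039 estimated counts in controls and from 21729844 to 23530490 in Ptch1-ablated libraries, so that 3 counts, the limit that a count of 0 allows, equalled 0.121 to 0.158 CPM (counts in each 1000000, on library totals scaled by TMM). Principal component 1 (45.1% of the variance) split the libraries by group, and component 2 (22.2%) set control 1 and ablated 2 apart. Ptch1 had 172, 104 and 369 counts in controls 1 to 3 and 4348, 5194 and 6230 in the libraries labelled Ptch1-ablated, which is higher and not lower. Counts over the whole gene do not show which exons are missing, so they check nothing about the label. Hhip, a Hedgehog target, stood at 12, 25 and 31 against 23979, 26893 and 26452 counts. Across all 13888 genes tested with edgeR's quasi-likelihood test, 763 (5.49%) were called, meaning that they had an adjusted p no higher than 0.05 and differed at least 2-fold, 467 (3.36%) higher and 296 (2.13%) lower. The higher genes made up 61.2% of these calls, and 73.0% to 73.4% when libraries were scaled by their totals alone or TPM values were used. At the adjusted p alone, 1178 genes (8.48%) passed, 650 (4.68%) higher and 528 (3.8%) lower.

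To ask how the AP-1 genes differed between Ptch1-ablated and control keratocytes, each gene was read from that fit. Fos, Fosb, Jun and Junb passed and were all higher in the Ptch1-ablated group, by 1.81-fold, 2.26-fold, 2.73-fold and 1.41-fold. Of the 10 genes, 9 had enough counts to be tested, 4 of these passed higher (4.68% of all genes tested) and 0 lower, and 2, Fosb and Jun, were called at 2-fold (3.36% of all genes tested, higher). Groups did not overlap for 7 of the 9, all higher in the ablated libraries, where 14.1% of all tested genes did so in that direction. All 9 had a log2FC (log2 fold change, Ptch1-ablated over control) above 0, as did 50.4% of all genes tested, and their median was 0.74 against 0.005 over all genes tested. All values are of whole sorted populations, in which a change in the share of a cell type and a change in RNA per cell cannot be told apart.

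**Figure D1:**
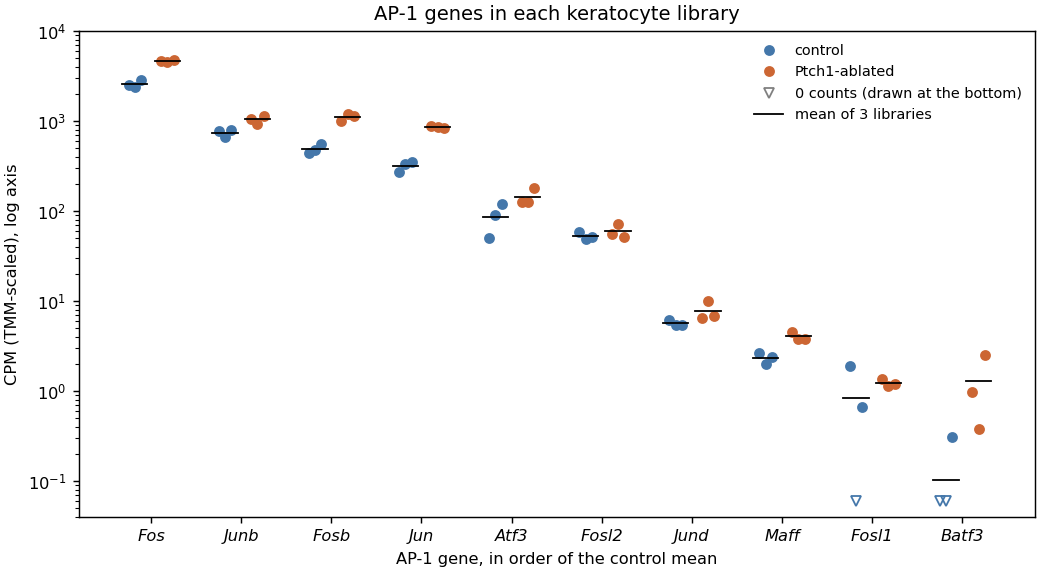
CPM of each AP-1 gene in each library on a log axis, with genes in order of their control mean, points for libraries (blue for control, orange for Ptch1-ablated), lines for group means, and triangles at the bottom for 0 counts. Fos, Junb, Fosb and Jun sit above 200 CPM in every library with the orange points above the blue ones, while Jund, Maff, Fosl1 and Batf3 sit at or below about 10 CPM.

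Among the Fos proteins, Fos (Entrez 14281) is the prototype and the partner whose transcript is among the shortest lived in the cell. Fos stood at 2506, 2384 and 2885 CPM in controls 1 to 3 and at 4697, 4547 and 4829 CPM in Ptch1-ablated libraries 1 to 3. Every ablated library was higher than every control, and the ablated libraries lay closer to each other. Means were 2592 ± 261 and 4691 ± 141 CPM (SD, n = 3 each), with a log2FC of 0.86 ± 0.10 (SE, edgeR adjusted p = 0.0001718). By mean CPM Fos ranked 37 of the tested genes in controls and 13 in the ablated group. It passed under all 15 settings of the analysis and reached 2-fold in 3, with values up to 1.07 on the log2 scale.

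Fosb (Entrez 14282) encodes a second activating Fos protein and, by splicing, the truncated and long-lived ΔFosB, which gene totals do not separate. Fosb stood at 439, 473 and 556 CPM in the controls and at 995, 1199 and 1128 CPM in the ablated libraries. The groups were far apart, with the lowest ablated library above the highest control. The means were 489 ± 59.8 and 1107 ± 103 CPM (SD, n = 3 each), and the log2FC was 1.18 ± 0.13 (SE, edgeR adjusted p = 0.0001074). Fosb moved from rank 217 to rank 65, and without any one library its log2FC stayed between 1.11 and 1.28.

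Fosl1 and Fosl2 encode the Fos-related antigens Fra1 and Fra2, which lack the strong activation domain of Fos. Fosl2 (Entrez 14284) stood at 58.8, 48.7 and 51.3 CPM in the controls and at 55.1, 72.6 and 51.7 CPM in the ablated libraries. These ranges overlapped, and the log2 difference was 0.18 ± 0.20 (SE, edgeR adjusted p = 0.6925). Fosl1 (Entrez 14283) had estimated counts of 41.13, 0 and 14.6 in controls 1 to 3 against 32.45, 27.27 and 30.26 in ablated 1 to 3, or 0 to 1.88 against 1.15 to 1.36 CPM. The ablated libraries lay within the range of the controls, and the log2 difference of 0.54 ± 1.31 (SE, edgeR adjusted p = 0.882) became -0.03 without control 2. Estimated counts of Fosl1 were not whole in 5 of 6 libraries, so some of its reads were shared with other features. In the reference annotation Fosl1 overlaps Ccdc85b, which the deposited table also holds, on the opposite strand. Whether the shared reads lay there was not tested.

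Of the Jun proteins, Jun (Entrez 16476) is the strongest activator and can drive its own promoter through sites such as the one in capitals above. Jun stood at 269, 335 and 348 CPM in controls and at 884, 862 and 849 CPM in ablated libraries. The ablated libraries differed little among themselves (coefficient of variation 2.08%, against 13.3% in controls) and none came near a control. The means were 317 ± 42.3 and 865 ± 17.99 CPM (SD, n = 3 each), and the log2FC of 1.45 ± 0.13 (SE, edgeR adjusted p = 2.168e-05) was the largest among the 9 genes tested. Jun was called under all 15 settings, at 1.34 to 1.52 without any one library, and its rank by mean CPM moved from 391 to 96.

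Junb (Entrez 16477) is a weaker activator that can restrain Jun when both are present. Junb stood at 770, 675 and 789 CPM in controls and at 1070, 940 and 1143 CPM in ablated libraries, which did not overlap. The means were 745 ± 61.3 and 1051 ± 103 CPM (SD, n = 3 each), a log2FC of 0.50 ± 0.12 (SE, edgeR adjusted p = 0.02449). It no longer passed when control 1, control 2, ablated 1 or ablated 3 was left out, at log2 values of 0.52, 0.43, 0.49 and 0.43 (edgeR adjusted p = 0.0509, 0.144, 0.0789 and 0.101). In the reference annotation the Junb gene of 4235 bases overlaps Prdx2 on the opposite strand. Its coding transcript has 1809 bases and its RefSeq span 1840, and whether Prdx2 reaches that part was not examined. Whether the counting used strand is not stated. Prdx2 stood at 172 ± 32.8 and 147 ± 7.53 CPM (SD, n = 3 each, edgeR adjusted p = 0.5112).

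Jund (Entrez 16478), the Jun gene that quiescent cells usually keep on, was low here, at 6.19, 5.36 and 5.47 CPM in controls and 6.44, 10.1 and 6.80 CPM in ablated libraries. Its counts were 102 to 135 and 151 to 238. The groups did not overlap, but ablated 1 lay close to control 1, and the log2 difference of 0.45 ± 0.42 (SE, edgeR adjusted p = 0.6113) did not pass. The effective length that counts, FPKM and library totals imply for Jund (2643 bases) lies between its GENCODE transcript (1668 bases) and its RefSeq span (2878 bases).

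Atf3 (Entrez 11910), a stress-induced repressor that pairs with Jun, stood at 50.6, 89.7 and 120 CPM in controls and at 125, 125 and 183 CPM in ablated libraries. The groups did not overlap, but the highest control lay just under the lowest ablated library. With means of 86.6 ± 34.6 and 145 ± 33.1 CPM (SD, n = 3 each), the log2 difference was 0.74 ± 0.27 (SE, edgeR adjusted p = 0.138). Without control 3 it was 1.04 and passed (edgeR adjusted p = 0.0448), and the adjusted p ranged from 0.0274 to 0.406 over the alternatives.

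Maff (Entrez 17133) stood at 2.62, 1.999 and 2.41 CPM in controls and 4.48, 3.82 and 3.82 CPM in ablated libraries, on 38 to 57 and 90 to 105 counts. The groups did not overlap, and the log2 difference of 0.79 ± 0.64 (SE, edgeR adjusted p = 0.5596) did not pass. Batf3 (Entrez 381319), which leukocytes such as dendritic cells are known to use, had 0, 0 and 7 counts in controls and 23, 9 and 62 in ablated libraries. It had too few counts for the test. A count of 0 allowed up to 0.138 and 0.158 CPM in controls 1 and 2, and the ablated libraries stood at 0.980, 0.382 and 2.50 CPM.

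**Figure D2:**
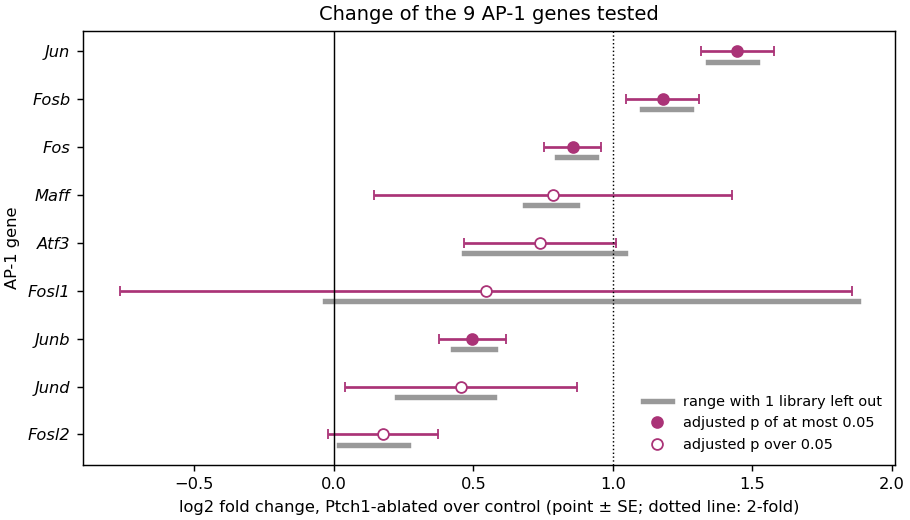
Log2FC, Ptch1-ablated over control, of the 9 AP-1 genes tested (points ± SE, filled where the edgeR adjusted p was at most 0.05), with grey bars for the range when 1 library was left out and a dotted line at 2-fold. Jun and Fosb lie beyond 2-fold with their grey bars, Fos lies at 0.86 and Junb at 0.50, and the bar of Fosl1 reaches below 0.

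Levels of different genes were compared as TPM (transcripts per 1000000 transcripts), which the authors scaled by length. In controls the order was Fos (2759 ± 338), Junb (925 ± 89.4), Fosb (279 ± 40.5), Jun (215 ± 31.8), Atf3 (99.5 ± 41.6), Fosl2 (17.8 ± 1.60), Jund (4.28 ± 0.308) and Maff (2.76 ± 0.347 TPM, SD, n = 3 each). Each of these neighbours was apart in range from the next. Fosl1 (0 to 2.52 TPM) and Batf3 (0 to 1.31 TPM) came last, with Fosl1 overlapping both Maff and Batf3. In the ablated group Fos (5774 ± 129) and Junb (1507 ± 72.2 TPM, SD, n = 3 each) kept their places. Fosb (647 to 835 TPM) and Jun (636 to 712 TPM), which were apart in the controls, overlapped there. Atf3 (191 ± 36.5) and Fosl2 (24.3 ± 6.14 TPM, SD, n = 3 each) followed, and Jund, Batf3 and Maff overlapped one another between 1.97 and 11.5 TPM, with Fosl1 at 1.83 to 2.14 TPM at the bottom.

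The summed level of the 10 genes was 4304 ± 504 TPM in controls and 8924 ± 190 TPM in the ablated group (SD, n = 3 each), or 0.430 ± 0.0504% and 0.892 ± 0.0190% of all TPM. TPM is not scaled by TMM, and the 2 fits on TPM moved the median log2FC of all genes up by 0.188 and 0.216. In TMM-scaled CPM the sum ran from 4013 to 4758 in controls and from 7762 to 8197 in ablated libraries. Fos made up 64.1 ± 0.523% of the sum in controls and 64.7 ± 0.581% in the ablated group (SD, n = 3 each). The share of Junb was 21.5 ± 1.36% and 16.9 ± 1.08%, that of Fosb 6.48 ± 0.380% and 8.19 ± 0.891%, and that of Jun 4.996 ± 0.647% and 7.59 ± 0.378% (SD, n = 3 each). Ranges of these 3 shares did not overlap between the groups. Nor did those of the share of Fosl2, at 0.3733 to 0.4673% in controls and 0.2245 to 0.3428% in the ablated group. Shares of a common sum depend on each other, and how often shares of other genes stay apart was not tested.

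**Figure D3:**
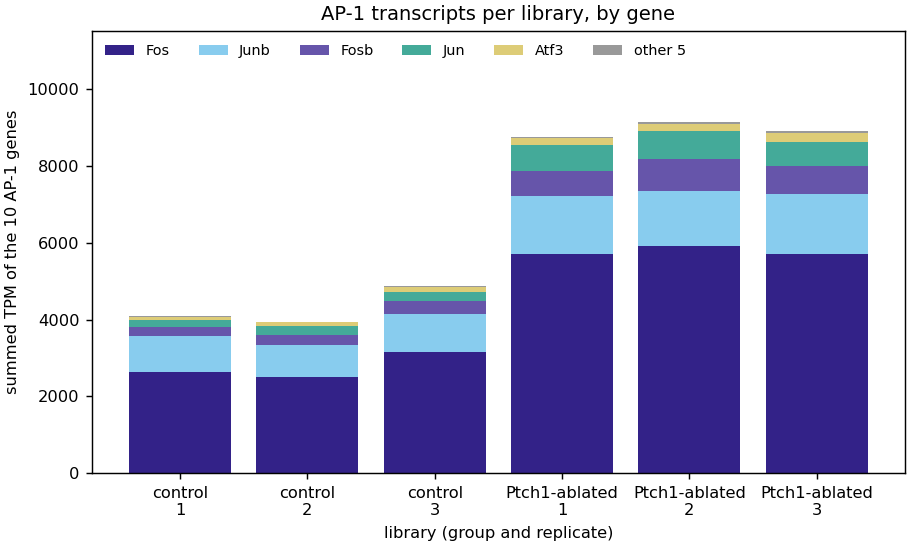
Summed TPM of the 10 AP-1 genes in each library, stacked by gene. The 3 control bars reach 3948 to 4881 TPM and the 3 Ptch1-ablated bars 8750 to 9127 TPM, with Fos as the largest block in all 6.

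Ratios of counts between AP-1 genes within a library do not depend on how libraries are scaled, and 5 were compared. Jun over Junb was -1.24 ± 0.26 on the log2 scale in controls and -0.28 ± 0.15 in the ablated group (SD, n = 3 each), a difference of 0.96. Jun thus stood closer to Junb in every ablated library, at 0.743 to 0.917 counts for each count of Junb. Jun over Fos differed by 0.59, Fosb over Fos by 0.32, Jun over Fosb by 0.27 and Junb over Fos by -0.36 on the log2 scale. None of the 5 ratios overlapped between groups. Each had p = 0.1 (exact permutation test, two-sided, 3 against 3, adjusted p = 0.1 over the 5). That is the smallest p this design can give, so the test could not reach 0.05 and decides nothing here. All 5 ratios were built from Fos, Fosb, Jun and Junb, the genes that had passed. The ratios share these genes, so they are not 5 separate results. Fosb over Junb was not compared, and how often ratios of other genes stay apart was not tested.

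**Figure D4:**
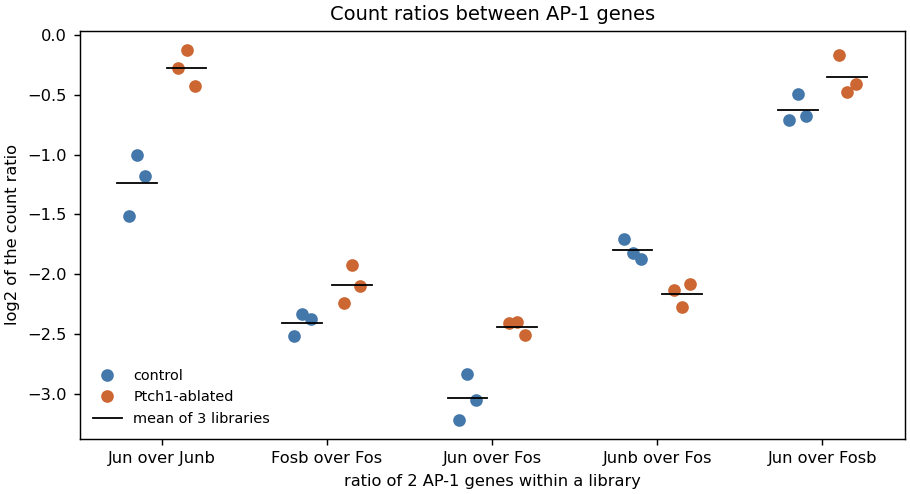
Log2 ratio of the counts of 2 AP-1 genes in each library (blue for control, orange for Ptch1-ablated, lines for means of 3 libraries). Jun over Junb runs from -1.52 to -1.01 in controls and from -0.43 to -0.12 in ablated libraries, and Junb over Fos is the only ratio of the 5 that is lower in the ablated group.

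Genes of other bZIP proteins, which join or compete with AP-1, had a median log2FC of 0.09. Of 31 tested, 0 passed higher and 1 lower (3.23%, against 8.48% of all genes tested), and 4 to 6 passed with DESeq2, library totals or limma. The 1 that passed was Creb5, a CRE-binding partner of Jun, at 31.1, 33.6 and 26.7 CPM in controls and 10.1, 10.9 and 6.68 CPM in ablated libraries (log2FC -1.72 ± 0.28, SE, edgeR adjusted p = 0.002186). The 4 most abundant did not pass, namely Atf4 and Xbp1 of the unfolded protein response and Nfe2l1 and Nfe2l2 of the oxidative stress response. Their log2 differences were 0.09, -0.16, -0.02 and 0.12 (edgeR adjusted p = 0.8095, 0.6708, 0.9759 and 0.7251).

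Genes that act upstream of AP-1, the MAP kinases, their activators and the factors that bind immediate early promoters, passed in 4 of 31 cases (12.9%, against 8.48% of all genes tested), 2 higher and 2 lower, with a median log2FC of 0.17. Egfr, the receptor for epidermal growth factor, stood at 8.26, 14.7 and 13.05 CPM in controls and 66.5, 67.6 and 71.2 CPM in ablated libraries, a log2FC of 2.51 ± 0.25 (SE, edgeR adjusted p = 4.633e-05). Mrtfb (listed as Mkl2), an actin-regulated partner of serum response factor, stood at 46.6, 43.6 and 45.4 against 170, 170 and 122 CPM (1.77 ± 0.18, SE, edgeR adjusted p = 5.378e-05). No ablated library came near a control for either gene. Lower were Mapk12, a p38 kinase, with a log2FC of -2.17 ± 0.52, and Map2k3, which activates p38 kinases, with -0.90 ± 0.16 (SE, edgeR adjusted p = 0.02171 and 0.004417). Map2k1 and Map2k2, the kinases above ERK, had log2 differences of -0.09 and 0.07 (edgeR adjusted p = 0.7833 and 0.8853).

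Feedback genes that switch this signaling off, such as MAP kinase phosphatases and proteins that destroy AU-rich mRNAs, passed in 5 of 21 cases (23.8%), all 5 higher, where 4.68% of all genes tested passed higher, with a median log2FC of 0.32. Spry1, an inhibitor of receptor tyrosine kinase signaling, was called, at 12.01 ± 1.02 and 29.4 ± 2.17 CPM (SD, n = 3 each, log2FC 1.29 ± 0.25, SE, edgeR adjusted p = 0.005783). The others passed under 2-fold and are named after their values were seen. Dusp1, a phosphatase of p38 and JNK, had a log2FC of 0.81, Zfp36l2 0.74, Dusp6, a phosphatase of ERK, 0.47, and Zfp36, which promotes decay of AU-rich mRNAs, 0.45 (edgeR adjusted p = 0.002378, 0.04687, 0.04987 and 0.03159). The number that passed was 2 to 3 when any one library was left out.

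Of 42 other immediate early genes tested, 13 (31.0%) passed higher and 0 lower, against 4.68% and 3.8% of all genes. This list, like the others, was written with earlier results of these data known, so the shares describe it and test nothing. Of these, 6 were called higher, as were 3.36% of all genes tested. The median log2FC was 0.61, and 41 of 42 had a value above 0, as did 50.4% of all genes tested. The groups did not overlap in 29 with the ablated libraries higher, against 14.1% of all genes tested. Myc, the growth regulator, stood at 17.8, 15.5 and 21.4 CPM in controls and 83.0, 88.4 and 69.9 CPM in ablated libraries (log2FC 2.14 ± 0.21, SE, edgeR adjusted p = 4.242e-05). The matricellular genes Ccn2 (listed as Ctgf) and Ccn1 (listed as Cyr61) stood at 108 ± 17.5 and 468 ± 30.3 CPM, and at 1202 ± 131 and 2513 ± 150 CPM (SD, n = 3 each, edgeR adjusted p = 4.211e-06 and 7.863e-05). Plk2, Id3 and the nuclear receptor Nr4a1 rose by 1.31, 1.19 and 1.15 on the log2 scale (edgeR adjusted p = 0.0001599, 0.0007509 and 0.0001831). Egr1, the zinc finger factor that is the most abundant gene of the list, stood at 3820, 3565 and 3686 CPM in controls and 5914, 5943 and 4505 CPM in ablated libraries (log2FC 0.56 ± 0.11, SE, edgeR adjusted p = 0.008819). Ier2 did not pass, at 456, 449 and 461 against 691, 379 and 404 CPM (edgeR adjusted p = 0.8312), so that only ablated 1 stood above the controls.

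Genes known as AP-1 targets in other cells passed in both directions. Of 37 tested, 5 passed higher and 4 lower (24.3% in all, against 8.48% of all genes tested), with a median log2FC of 0.48. Tnc, which encodes the matrix protein tenascin C, had 13, 44 and 49 counts in controls and 367, 553 and 473 in ablated libraries (log2FC 3.52 ± 0.50, SE, edgeR adjusted p = 0.0007656). Spp1 (osteopontin) and Cdkn1a, the cell cycle inhibitor p21, were called as well, at 1.76 ± 0.24 and 1.36 ± 0.15 on the log2 scale (SE, edgeR adjusted p = 0.0006375 and 8.109e-05). The cyclin gene Ccnd2 and the membrane protease gene Mmp14 passed higher under 2-fold (0.71 and 0.87 on the log2 scale, edgeR adjusted p = 0.007043 and 0.008498). Lower were Gja1, Col1a2, Lox and Cd44, a gap junction gene, a collagen I gene, a collagen crosslinking enzyme and a hyaluronan receptor. Their log2FC values were -0.97, -0.94, -0.80 and -0.71 (edgeR adjusted p = 0.002088, 0.0001248, 0.005773 and 0.00609), and these 6 genes under 2-fold are named after their values were seen.

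**Figure D5:**
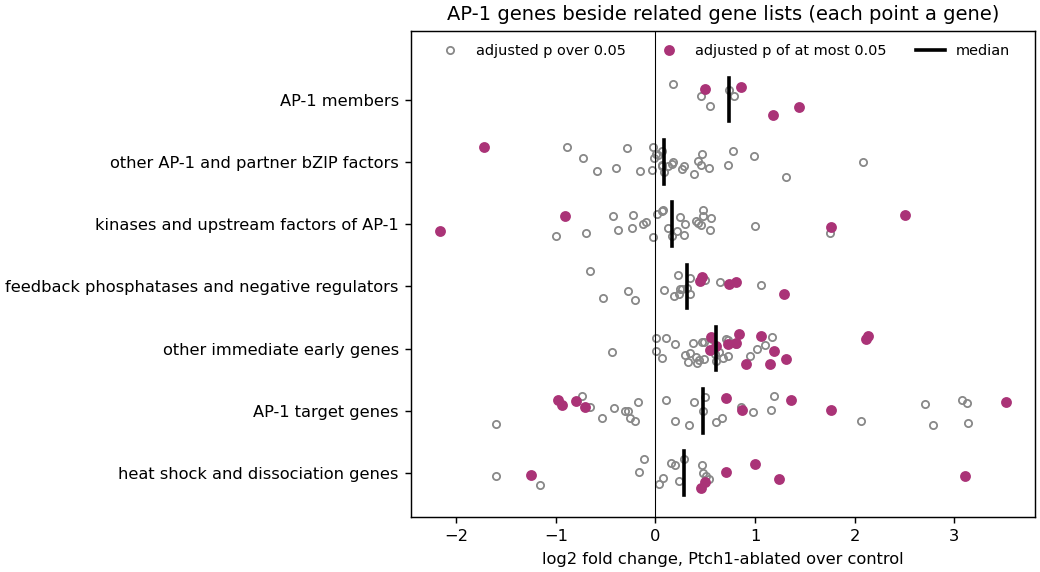
Log2FC, Ptch1-ablated over control, of each tested gene of 7 lists, with filled points where the edgeR adjusted p was at most 0.05 and bars at list medians. The median of the AP-1 genes (0.74) and of the other immediate early genes (0.61) lie to the right of those of other bZIP factors (0.09) and upstream kinases (0.17), and the target list has filled points on both sides of 0.

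Heat shock and dissociation genes, which the digestion and sorting of tissue can also induce, passed in part, mostly in the direction of the AP-1 genes. Of 21 tested, 6 passed higher and 1 lower (33.3% in all, against 8.48% of all genes tested), and the 7 became 3, 4 and 4 without control 2, ablated 2 and ablated 3. The list had a median log2FC of 0.28 and a summed level of 7959 to 9038 CPM in controls and 9588 to 10973 CPM in ablated libraries. The small heat shock genes Hspb8 and Hspb1 were called higher, at 3.11 ± 0.48 and 1.24 ± 0.15 on the log2 scale, and the related Cryab lower at -1.25 ± 0.17 (SE, edgeR adjusted p = 0.001324, 0.0002378 and 0.0006598). Hspa1a, the inducible Hsp70 gene, named after its values were seen, stood at 689, 660 and 887 CPM in controls and 918, 970 and 1236 CPM in ablated libraries (log2 difference 0.48, edgeR adjusted p = 0.07803). Its part in the AP-1 values was not tested.

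Markers of other cells that a corneal sort could hold also differed between the groups. For comparison, 4.68% of all genes tested passed higher and 3.8% lower. The summed keratocyte markers stood at 156143 to 183730 CPM in controls and 94286 to 104938 CPM in ablated libraries, with 8 of 10 lower, and Kera, the defining keratan sulfate proteoglycan gene, stood at 13452 ± 860 and 4472 ± 918 CPM (SD, n = 3 each). Kera was thus abundant in all 6 libraries, as the label of keratocytes asks. A large part of the sum was Col1a1, at 58318 ± 5885 and 27890 ± 4218 CPM (SD, n = 3 each). The abundant Lum and Dcn did not pass (edgeR adjusted p = 0.8118 and 0.177). Lum stood at 11298 ± 1301 and 10747 ± 1744 CPM, and Dcn at 37565 ± 5055 and 30101 ± 5732 CPM (SD, n = 3 each). Vascular endothelial markers passed higher in 8 of 12 (848 to 1053 against 1295 to 1528 CPM in sum). Kdr, the most abundant of them and the only 1 with a log2FC below 0, stood at 553 ± 87.3 and 420 ± 15.7 CPM (SD, n = 3 each, edgeR adjusted p = 0.1119). Mural cell markers passed higher in 6 of 12 (1051 to 1228 against 1665 to 1683 CPM), among them Acta2, which the study lists as a fibroblast marker. Melanocyte markers did so in 1 of 5 (21.9 to 28.3 against 34.4 to 41.7 CPM) and leukocyte markers in 2 of 18 (3572 to 4014 against 4392 to 4838 CPM). The leukocyte markers had a median log2FC of 0.04 with 9 of 18 below 0, and without Cd74, an antigen presentation gene, their sums overlapped (2109 to 2324 against 2002 to 2662 CPM). Of their defining markers Pecam1 stood at 63.9 and 118 CPM, Cdh5 at 10.6 and 28.4, Rgs5 at 232 and 417, and Ptprc at 39.4 and 45.1 (group means). Dct, that of melanocytes, had 28 counts in control 2 and 0 in the other 5 libraries. The 1 melanocyte marker that passed, Kit, stood at 4.95 and 21.2 CPM (group means). Mitf, the only 1 of the 5 tested with a log2FC below 0, stood at 15.3 and 10.1 CPM (group means, edgeR adjusted p = 0.3895). Corneal endothelial markers, 3 higher and 1 lower of 9, summed to 7746 to 8811 against 4345 to 5082 CPM, with Slc4a11 at 4.82 and 20.9 CPM. Without the water channel gene Aqp1 the sums of the other 8 overlapped (955 to 1102 against 906 to 1214 CPM). Epithelial markers, 1 higher and 5 lower of 11, summed to 66.2 to 83.9 against 8.05 to 12.5 CPM, with Krt14 at 9.09 and 0.284 CPM and Krt12 at 0 counts in all controls and 21 to 52 in ablated libraries. The part of these cells in the AP-1 values was not tested.

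Genes whose levels most resembled Fos or Jun over the 6 libraries were named by Pearson's r of log2 CPM among 11055 genes averaging 100 counts or more. They were Ptch1 (r = 0.998), Aspn (0.996), Hsp90aa1 (0.996), Thbd (0.996) and Lepr (0.995) for Fos, and Stat2 (0.999), Col18a1, Smox, D630003M21Rik and Ptn (0.997 each) for Jun. The 6 points of each correlation fall into the 2 groups, so genes picked this way tend to differ between the groups. Each of these 10 genes passed the test higher in the ablated group (4.68% of all genes tested did), which follows largely from that choice.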

How the data were processed

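RNA of sorted corneal keratocytes was measured in 3 control and 3 Ptch1-ablated libraries, grouped by sample title. Per the labels, RNA was taken with Trizol and libraries were made with a TruSeq kit, whereas the study's methods describe Ribo-Zero depletion and a BGISEQ platform, which was not settled. The authors aligned reads with Bowtie2 (2.2.5) and quantified genes with RSEM (1.2.12), and the submitters' processing notes name build mm9. The deposited table holds expected counts (not normalized, 18.6% not whole because RSEM splits shared reads), TPM and FPKM. The authors scaled TPM to effective length and a common sum, and FPKM to length and library fragments. FPKM was not compared between groups and served only for the effective length of Jund. Strandedness is not given in the sources used here. The table carries no positions, so promoters and overlaps came from RefSeq and GENCODE tables of GRCm38, matched by gene.

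Expected counts were rounded, filtered by filterByExpr (13888 of 17606 genes, holding 99.93% of counts) and scaled by TMM. The test was edgeR's quasi-likelihood F test (edgeR 4.0.16, R 4.3.3, two-sided, group only), and p-values were adjusted over all 13888 genes by Benjamini-Hochberg. Passed means an adjusted p of at most 0.05, and called also a change of 2-fold or more, as the methods of the study set it. An SE is the log2 fold change (log2FC) divided by the square root of F. Replicates are biological per the study's methods, and no 2 libraries agreed within sampling noise. Floors cover counting error only. The test was checked on simulated counts.

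Alternatives were DESeq2 (1.42.0), RLE, upper quartile and library total scaling, no filter, limma (3.58.1) on log2(TPM + 1) and log2(TPM + 0.1), the replicate number as a block, no minimum fold, and leaving out each library. The AP-1 genes and the lists were chosen with earlier results of these data known. Genes named from lists were up to 4 called genes per direction with the largest change, the 4 most abundant of the kinase, bZIP and immediate early lists, and the 5 most like Fos and Jun. Motif searches used Python 3.11.15. The result for 1 list of cell type markers is not reported here.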

Additional observations from a re-analysis of the deposited data

How the results depend on the processing

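Of all genes 763 were called at 2-fold, 1178 passed with no minimum fold, and 611 to 756 were called at 2-fold with 1 library left out. Over the alternatives the AP-1 genes gave 119 values of the same direction and on the same side of the adjusted p, 4 that no longer passed, 6 that passed anew and 1 reversed. Fos also reached 2-fold in 3 of them (library totals only and both TPM fits, 1.025, 1.072 and 1.072). Log2 values with 1 library left out ran from 0.799 to 0.94 (Fos), 1.106 to 1.28 (Fosb), 1.34 to 1.518 (Jun), 0.428 to 0.577 (Junb), 0.465 to 1.044 (Atf3), 0.018 to 0.265 (Fosl2), 0.227 to 0.574 (Jund), 0.685 to 0.872 (Maff), 2.994 to 7.864 (Batf3, in the 4 fits where it could be tested) and -0.032 to 1.881 (Fosl1, reversed at -0.032 without control 2). Atf3 passed with DESeq2 (0.745), library totals only (0.916), limma with a pseudocount of 1 (1.005) or 0.1 (1.013) on TPM, and without control 3 (1.044). Without the low-count filter Batf3 stood at 3.566 (edgeR adjusted p = 0.3), a value set by its 0 counts. Library totals only and both TPM fits moved the median of all genes by 0.168, 0.188 and 0.216, and less that shift Fos stood at 0.857, 0.884 and 0.856.

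No pairing of the samples by replicate number was seen (same-number correlations of deviations -0.046, -0.049 and 0.039), which 3 libraries per group cannot settle. With the replicate block 663 genes were called, Atf3 passed (0.80), and 2 other bZIP and 2 feedback genes passed. Of the other lists, bZIP genes passing numbered 4 with DESeq2, 4 with library totals, 2 without the filter, 6 and 6 with limma, and 1 to 3 with a library left out. Feedback genes numbered 3 with upper quartile scaling, 3 without the filter, and 2 to 3 with a library left out. Other immediate early genes numbered 21 with DESeq2, 25 with library totals, 24 and 22 with limma, and 9 to 15 with a library left out. Target genes numbered 14 with limma on log2(TPM + 1), and heat shock genes 11 with DESeq2, 13 and 13 with limma and 3 to 7 with a library left out. The cause of these moves was not tested. Counts were lowest for Batf3, Fosl1, Maff and Jund.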
